A study of Mus musculus with 12 samples.

Results

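The response of mouse macrophages to 4 h of interferon-beta (Ifn-β) was examined against untreated cells. Levels were compared between the 2 arrays labelled 4 h and the 2 arrays labelled 0 h, for each transcript cluster (the set of exon probes assigned to 1 gene locus) that carried exactly 1 gene symbol. These were 14996 of the 23332 clusters on the array and stood for 14860 genes. Both groups were bone marrow derived macrophages from male Balb-C mice of 8 to 9 weeks, grown throughout with 10000 U/ml of the macrophage growth factor CSF1. On day 7 of culture, the cells of the 4 h group received 10 U/ml of recombinant mouse Ifn-β, whereas those of the 0 h group were collected before treatment. No untreated culture was kept for the same 4 h, so Ifn-β and the added time in culture cannot be told apart. The replicates came from separate wells and are called biological replicates in the sample descriptions. Whether the wells held cells of different mice is not given, so the p-values measure only the spread between these samples, which may be technical.

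Ifn-β is a type I interferon. Its receptor, made of Ifnar1 and Ifnar2, acts through the kinases Jak1 and Tyk2 on transcription factors, among them Stat2, which works together with Irf9. These factors bind the interferon-stimulated response element in the promoters of many genes. In macrophages the best known targets are antiviral effectors, but genes of metabolism, antigen presentation, migration and cell growth are also under interferon control.

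All values are levels on the log2 scale as normalised with RMA (robust multi-array average), so a difference of 1 is a 2-fold change. A gene was called up-regulated or down-regulated when the adjusted p of limma was under 0.05 and the change reached 1.5-fold, and only such genes are said to have risen or fallen. The median level of the 4 arrays lay between 5.84 and 5.90. The upper quartile was 8.09 and 7.97 at 0 h, against 7.86 and 7.89 at 4 h. A level depends on the probes of a gene as well as on its RNA, so the macrophage label was not checked by ranking genes. Of 7 measured macrophage markers, Csf1r, the receptor for CSF1, had means of 11.14 at 0 h and 10.95 at 4 h, and the means of Cd68 were 13.23 and 13.22. Fcgr1 rose and Cd14 fell (-0.76), and the other 5 were not called. The lists for 11 other cell types were compared only between the times. The summed linear level of the plasmacytoid dendritic cell list was 1172 and 1204 at 0 h and 2831 and 3161 at 4 h, with Tcf4 (1.72) and Bst2 (1.25) called and Siglech (0.16) and Ccr9 (0.34) not called. That of the endothelial list was 182 and 169 at 0 h and 1216 and 1215 at 4 h. There Kdr, a receptor for vascular endothelial growth factor, rose by 3.46, while Cdh5 (0.52), Tek (0.04) and Pecam1 (0.28) were not called. On the other lists 1 member was called, the T cell gene Cd28 (-0.64). The sum of the T cell list was 824 and 812 at 0 h and 622 and 557 at 4 h, but its median change was 0.02. Cd3e (0.11), Cd3d (-0.21), Cd3g (-0.01), Cd4 (0.08) and Cd8a (0.04) were not called. A change in the share of such cells was not tested, and in bulk RNA fewer cells of a type and less RNA per cell cannot be told apart.

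At 4 h, 636 clusters were up-regulated (4.24% of those tested) and 737 were down-regulated (4.91%). Counted as genes, the numbers were 632 (4.25%) and 726 (4.89%). The rises were larger than the falls. A change of at least 1 was found in 356 of the rises and 177 of the falls, and a change of at least 3 in 40 rises and in 0 falls. At every called cluster, both arrays at 4 h lay on the same side of both arrays at 0 h. The median change over all clusters with 1 symbol was -0.05, but it depended on the mean level over all 12 arrays. It was 0.02 below a mean level of 4 and 0.05 between 4 and 6, against -0.19 in each of the ranges 6 to 8 and 8 to 10, where most falls lay. Down-regulated clusters made up 9.21% and 8.89% of these ranges.

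The number of falls depended on the scaling and on single arrays more than the number of rises. With each array centred on its 75th percentile, the median change of all clusters moved from -0.070 to 0.085 and the calls became 850 up and 489 down, a split of 63.5% up against 46.3% as deposited. With a second quantile normalization they were 736 up and 589 down (55.5% up), and with arrays centred on their medians 697 up and 568 down (55.1% up). Without 0 h array 2 the calls were 512 up and 194 down. Without 4 h array 15 they were 450 up and 209 down, without 4 h array 16 446 up and 254 down, and without 0 h array 4 472 up and 401 down. The call was kept under all 3 rescalings and with each of the 12 arrays left out in turn by 405 of the rises and 149 of the falls. These are termed stable calls below, and the arrays whose omission ended a call are named for genes that lost it. Leaving out an array of another time leaves each change at 4 h as it was. The number of falls still differed then, because the spread was estimated from other arrays. A lost call therefore need not come from the values of the array left out. The lower upper quartile at 4 h moved with the falls, and its part in them was not tested beyond these rescalings. Where a call is said to be lost without any 1 of the 4 arrays, the arrays of 0 h and 4 h are meant.

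**Figure D1:**
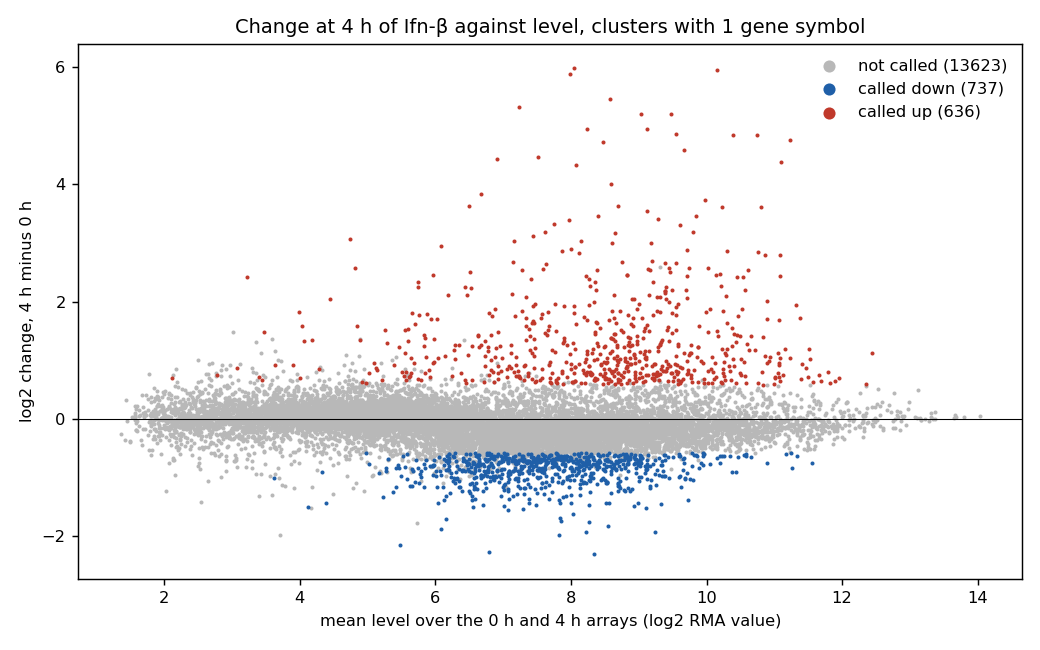
Each point is a transcript cluster with 1 gene symbol, plotted as its log2 change (4 h minus 0 h, vertical axis) against its mean level over the 4 arrays (log2 RMA value, horizontal axis). Rises (636, red) reach 5.97 on the log2 scale, while falls (737, blue) reach -2.31. Most falls had a mean level from 6 to 10 when taken over all 12 arrays.

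The largest rises included genes for GTPases, ligands and secreted or membrane proteins as well as antiviral effectors. Gbp5, an interferon-inducible guanylate binding protein, had levels of 5.11 and 4.99 at 0 h and 10.98 and 11.07 at 4 h. This was a rise of 5.97 (SE 0.10, adjusted p = 5.89e-08), or 62.9-fold, and the largest of the comparison. The related Gbp3 (5.20), Gbp7 (4.86) and Gbp2 (4.58) rose with it. These genes lie in a family of close relatives, as do Tgtp1 and Ifi205, so signal from other members on their probes cannot be told apart. Tgtp1, a T cell specific GTPase gene covered by 2 clusters, rose by 5.31 on one and by 3.33 on the other. Calhm6, a member of the calcium homeostasis modulator family, read 5.79 and 5.92 at 0 h and 11.31 and 11.30 at 4 h, a rise of 5.45 (SE 0.11, adjusted p = 8.44e-08). Tnfsf10, which encodes the death ligand Trail, rose by 5.88. The chemokine gene Cxcl10 rose by 5.95, and Ccl12, a chemokine for monocytes, by 4.72.

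Other large rises included genes for enzymes and secreted proteins. Fgl2, a fibrinogen-like protein with prothrombinase activity, read 6.86 and 6.45 at 0 h and 11.67 and 11.52 at 4 h, and rose by 4.94 (SE 0.16, adjusted p = 7.42e-07). Lipg, the lipase known as endothelial lipase, read 5.21 and 5.35 before treatment and 9.68 and 9.79 after it, a rise of 4.46 (SE 0.13, adjusted p = 4.23e-07). Enpp4, of the ectonucleotide pyrophosphatase family, went from 5.00 and 4.39 to 9.17 and 9.08, a rise of 4.43 (SE 0.25, adjusted p = 1.59e-05). In each of these genes the arrays of the 2 times were separated by more than 4 units, and the replicates of a time differed by less than 1 unit. All 20 of the largest rises were stable calls. The antiviral effectors listed here (Mx1, Ifit1, Rsad2, Ifit2, Mx2, Isg20 and others) contributed 10 rises among 11 measured genes, with a median of 4.00.

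**Figure D2:**
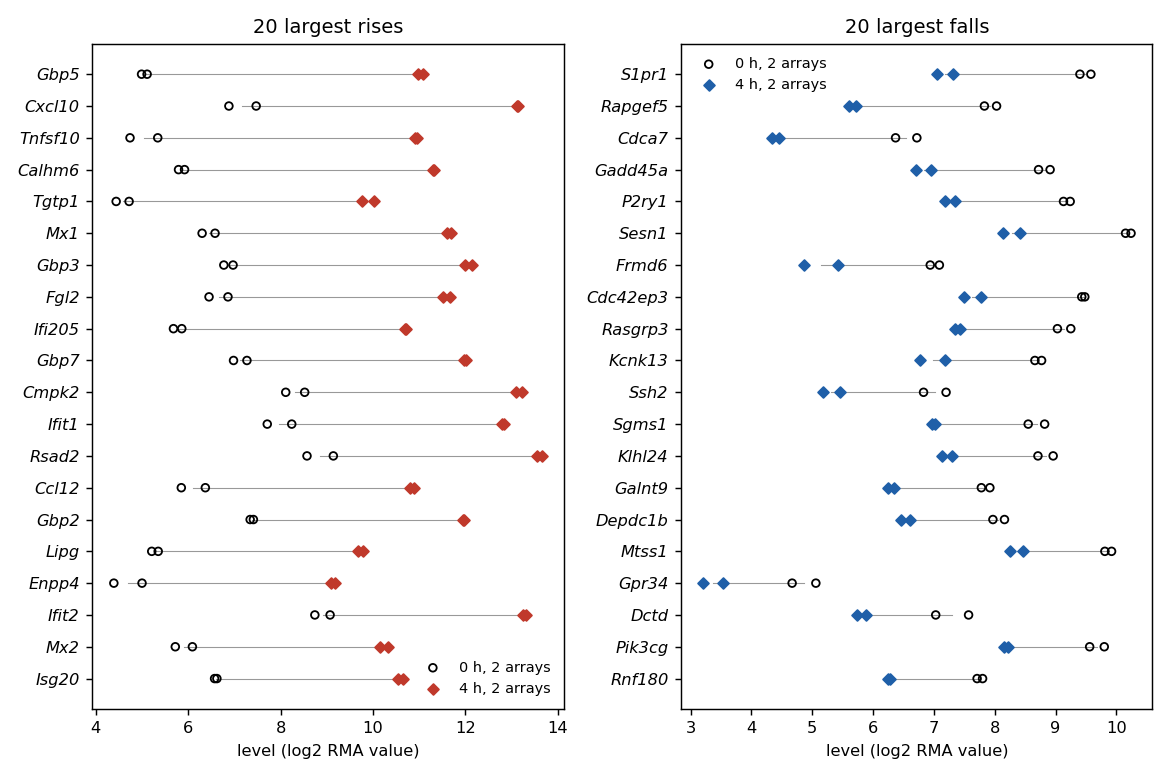
Levels (log2 RMA value, horizontal axis) of the 20 largest rises (left) and the 20 largest falls (right) are drawn for each array, with open circles for 0 h and filled diamonds for 4 h and a line between the means. In all 40 genes both 4 h arrays lie on 1 side of both 0 h arrays, from Gbp5 (5.97) to Isg20 (4.00) and from S1pr1 (-2.31) to Rnf180 (-1.49).

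To set these rises beside a sequence feature that the measurements did not use, promoter windows from 250 bases before to 50 bases after each transcription start were taken from RefSeq (build GRCm38.p6). A window was found for 11869 of the 14860 genes. The core of the interferon-stimulated response element, GAAANNGAAA on either strand, was searched in them. The windows of 6 rising genes outside the classical antiviral list follow, chosen to show the core beside genes of different function, with the core in capitals (on the opposite strand it reads TTTCNNTTTC). Calhm6 was described above. Mmp13 encodes collagenase 3, Parp11 an ADP-ribosyltransferase, Slamf8 a receptor of the signalling lymphocytic activation molecule family, Fcgr4 an activating Fc receptor for IgG, and Slc25a22 a mitochondrial glutamate carrier. The sequences run 5′ to 3′ on the strand of the gene, the start site being position 0.
Calhm6, chr10:34127923-34128222, minus strand, core from position -64: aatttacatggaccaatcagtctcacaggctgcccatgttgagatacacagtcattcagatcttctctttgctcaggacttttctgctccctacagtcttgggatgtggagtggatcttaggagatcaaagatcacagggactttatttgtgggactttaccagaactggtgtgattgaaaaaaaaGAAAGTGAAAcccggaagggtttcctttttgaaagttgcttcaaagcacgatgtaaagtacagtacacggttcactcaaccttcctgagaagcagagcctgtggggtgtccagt
Mmp13, chr9:7272264-7272563, plus strand, core from position -146: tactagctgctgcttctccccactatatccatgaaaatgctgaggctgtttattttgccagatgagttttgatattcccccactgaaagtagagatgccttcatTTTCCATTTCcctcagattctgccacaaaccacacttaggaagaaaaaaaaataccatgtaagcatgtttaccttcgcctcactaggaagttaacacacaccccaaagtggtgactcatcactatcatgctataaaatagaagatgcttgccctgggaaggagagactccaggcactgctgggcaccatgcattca
Parp11, chr6:127446590-127446889, plus strand, core from position -44: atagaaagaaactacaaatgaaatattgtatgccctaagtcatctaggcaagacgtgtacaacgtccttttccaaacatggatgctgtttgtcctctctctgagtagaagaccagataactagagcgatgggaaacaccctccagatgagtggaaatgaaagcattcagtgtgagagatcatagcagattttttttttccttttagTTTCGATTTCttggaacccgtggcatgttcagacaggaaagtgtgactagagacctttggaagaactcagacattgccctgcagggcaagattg
Slamf8, chr1:172590519-172590818, minus strand, core from position -15: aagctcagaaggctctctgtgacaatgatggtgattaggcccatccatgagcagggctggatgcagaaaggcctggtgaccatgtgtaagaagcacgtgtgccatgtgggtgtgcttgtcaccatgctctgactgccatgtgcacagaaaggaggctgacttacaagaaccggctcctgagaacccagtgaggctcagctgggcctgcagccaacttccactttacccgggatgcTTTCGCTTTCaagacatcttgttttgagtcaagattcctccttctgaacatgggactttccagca
Fcgr4, chr1:171018676-171018975, plus strand, core from position -73: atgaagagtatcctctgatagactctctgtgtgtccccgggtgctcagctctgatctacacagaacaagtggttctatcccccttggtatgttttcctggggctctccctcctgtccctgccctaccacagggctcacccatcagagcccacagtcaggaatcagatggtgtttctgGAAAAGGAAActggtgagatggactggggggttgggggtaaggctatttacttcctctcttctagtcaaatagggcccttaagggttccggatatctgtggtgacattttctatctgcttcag
Slc25a22, chr7:141435326-141435625, minus strand, core from position -79: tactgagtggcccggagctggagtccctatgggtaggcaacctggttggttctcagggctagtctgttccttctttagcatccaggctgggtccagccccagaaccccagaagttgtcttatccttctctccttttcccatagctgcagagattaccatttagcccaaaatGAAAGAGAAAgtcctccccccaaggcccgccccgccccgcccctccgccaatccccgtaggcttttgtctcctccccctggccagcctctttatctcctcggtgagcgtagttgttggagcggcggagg

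The core was present in the window of 451 of the 11869 genes (3.8%, 95% Wilson interval 3.47 to 4.16) and in 1131 of all 32851 windows (3.44%). Among up-regulated genes it was found in 66 of 500 (13.2%, 10.5 to 16.4), and among down-regulated genes in 19 of 596 (3.19%, 2.05 to 4.93). The share was higher in genes with larger rises. It was 6.82% (15 of 220) for rises under 1, 13.8% (27 of 196) from 1 to 2, 20% (11 of 55) from 2 to 3, and 44.8% (13 of 29, 28.4 to 62.5) for rises over 3. With the classical antiviral effectors left out, 63 of 493 up-regulated genes held it (12.8%). A shorter core without the last base, GAAANNGAA, which every match of the longer core contains, was found in 19.8% of up-regulated genes, 7.89% of down-regulated genes and 8.97% of all genes. The core TTCNNNGAA, to which factors of the Stat family bind, was searched on both strands and can overlap the others. It was held by 9.4%, 7.21% and 8.64%, respectively. Its share was 7.73% for rises under 1, 9.18% from 1 to 2 and 9.09% from 2 to 3. For rises over 3 it was 24.1% (7 of 29, 12.2 to 42.1). These shares describe letters within the windows and no binding was measured. Genes of a family or a cluster of neighbours share sequence, so the genes counted are not independent.

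**Figure D3:**
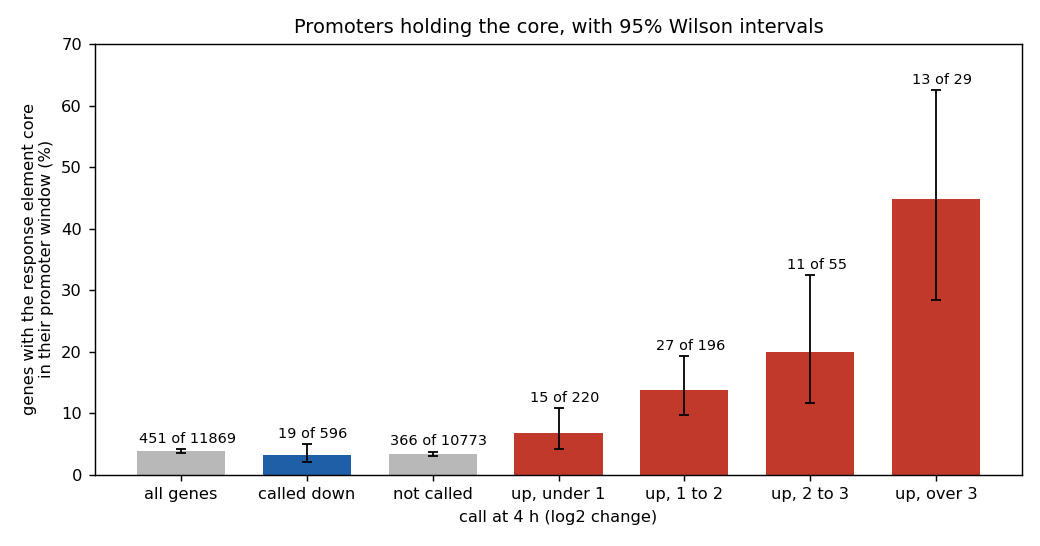
Bars give the percentage of genes (vertical axis) whose promoter window holds the response element core, by call and by size of the log2 rise at 4 h (horizontal axis), with 95% Wilson intervals and the counts above. The share runs from 6.82% for rises under 1 to 44.8% for rises over 3, against 3.8% of all genes and 3.19% of down-regulated genes.

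Beyond single genes, the changes were described by function with 40 gene lists, of whose 1089 members 903 were measured, with 180 up-regulated and 107 down-regulated. Over all genes, 4.25% were called up and 4.89% down, with a median change of -0.05. The lists and their members were chosen with earlier results of these data known. A count or median that departs from these values is therefore a description, and no list was tested. At mean levels of 6 to 8 and 8 to 10 the shares called down were higher, 9.21% and 8.89%, with medians of -0.19. The lists were not matched for level. Ubiquitin and ISG15 enzymes had the highest median outside the classical effectors, whereas ribosome biogenesis, DNA replication and mitosis had the lowest.

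**Figure D4:**
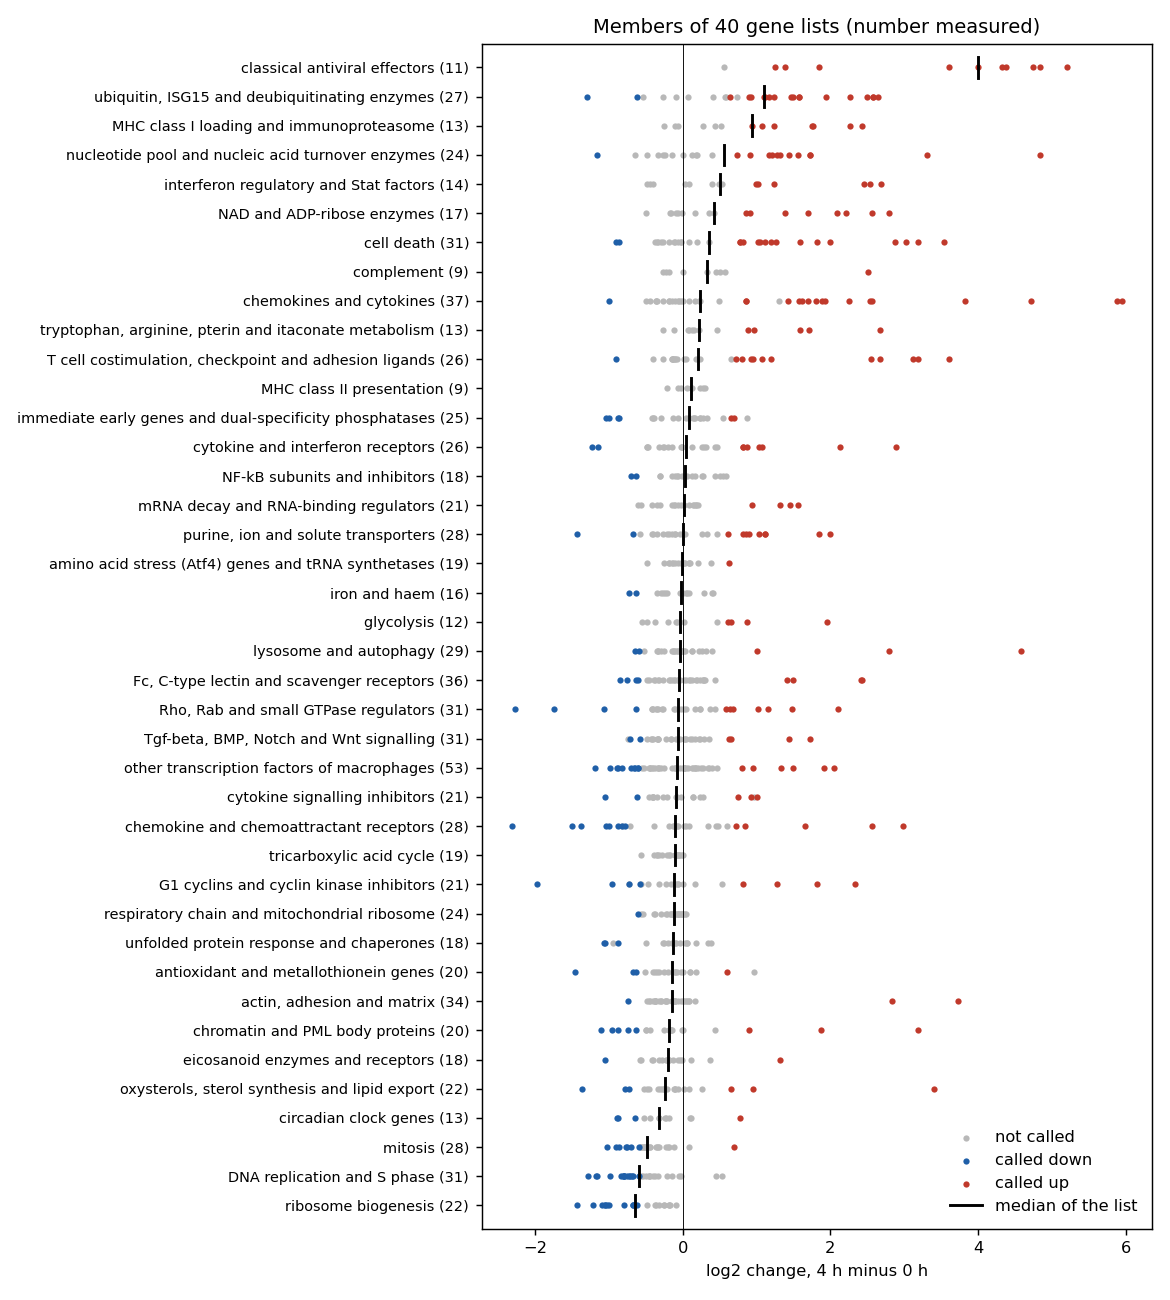
Each row is a gene list with its number of measured members, and each point a member at its log2 change (4 h minus 0 h, horizontal axis), red for called up, blue for called down and grey for not called. Black bars are list medians, which run from 4.00 for classical antiviral effectors through 1.10 for ubiquitin and ISG15 enzymes to -0.59 for DNA replication and -0.65 for ribosome biogenesis.

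Among 24 measured enzymes of the nucleotide pool and of nucleic acid turnover, 12 rose and 1 fell, with a median change of 0.56. Cmpk2, a mitochondrial kinase for pyrimidine nucleotides, read 8.52 and 8.11 at 0 h and 13.09 and 13.23 at 4 h, a rise of 4.84 (SE 0.14, adjusted p = 3.64e-07). Nt5c3, a nucleotidase that removes phosphate from pyrimidine nucleotides, went from 8.13 and 7.77 to 11.36 and 11.16, a rise of 3.31 (SE 0.15). Thus a kinase and a nucleotidase both rose. Samhd1, which hydrolyses deoxynucleoside triphosphates, rose by 1.73 (SE 0.09), and Dck, which makes deoxynucleotides by salvage, by 1.27 (SE 0.11). Purine breakdown was represented by Pnp, a nucleoside phosphorylase (1.44), and Xdh, xanthine dehydrogenase (1.17). Adar, which edits adenosine in double-stranded RNA, rose by 1.72, and the exoribonucleases Pnpt1 and Xrn1 by 1.56 and 1.32. Ampd3, an AMP deaminase, was the exception, with levels of 8.02 and 7.93 at 0 h and 6.76 and 6.88 at 4 h (-1.16, SE 0.15, adjusted p = 0.0025). Of the 12 rises, 10 were stable calls. The fall of Dctd, a dCMP deaminase that was not on the list, was among the 20 largest (-1.50).

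Of 13 measured genes of tryptophan, arginine, pterin and itaconate metabolism, 5 rose and 0 fell. Kmo, kynurenine monooxygenase, read 6.11 and 5.51 at 0 h and 8.67 and 8.29 at 4 h, a rise of 2.67 (SE 0.24, adjusted p = 3.14e-04). Kynu, kynureninase, which acts at a later step of the same pathway, rose by 1.71 (SE 0.18). Ido1, the interferon-inducible enzyme of the first step, had levels of 4.68 and 4.79 at 0 h and 4.89 and 4.72 at 4 h, and the groups overlapped (0.07, SE 0.12, adjusted p = 0.7910). Gch1, which opens the synthesis of tetrahydrobiopterin, a cofactor of nitric oxide synthase, rose by 1.59 (SE 0.18, adjusted p = 0.0012). Nos2, the inducible nitric oxide synthase, read 4.86 and 5.04 against 5.41 and 5.44, a difference below the 1.5-fold threshold (0.47, adjusted p = 0.0200). The other calls were Arg2 (0.96) and Wars (0.88). Without 4 h array 16 both were lost and the list held 3 rises, and the call of Arg2 was also lost without 0 h array 4.

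Of 17 measured genes of NAD and ADP-ribose metabolism, 8 rose, 0 fell and 9 were not called (median 0.42). Genes of the Parp family, whose enzymes attach ADP-ribose from NAD, were among the rises. Parp14 read 9.81 and 9.56 at 0 h and 12.48 and 12.47 at 4 h, a rise of 2.79 (SE 0.11, adjusted p = 2.43e-06). Parp11 (2.56), Parp9 (2.21), Parp12 (2.09) and Parp8 (1.38) also rose. Nampt, which makes the NAD precursor in the salvage pathway, went from 10.11 and 9.99 to 11.85 and 11.64, a rise of 1.70 (SE 0.12, adjusted p = 5.54e-05). Of the 8 rises, 7 were stable calls. The exception was Tiparp (0.86), whose call was lost without 0 h array 4 or either 4 h array.

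Lipid genes changed in both directions, with 3 rises and 3 falls among 22 measured genes of oxysterols, sterol synthesis and lipid export. Ch25h, which converts cholesterol to 25-hydroxycholesterol, had levels of 6.51 and 6.05 at 0 h and 9.77 and 9.58 at 4 h, a rise of 3.40 (SE 0.23, adjusted p = 4.70e-05). The cholesterol exporters of the list moved apart. Abcg1 read 10.45 and 10.38 against 11.35 and 11.39, a rise of 0.95 (SE 0.11, adjusted p = 0.0013). Abca1 read 8.19 and 7.92 against 6.64 and 6.75, a fall of -1.36 (SE 0.15, adjusted p = 9.94e-04). Sqle, an enzyme of cholesterol synthesis, stayed below the fold threshold (-0.52, SE 0.12, adjusted p = 0.0305). The falls of Fasn (-0.73) and Stard4 (-0.78) were lost without 0 h array 2 or 4 h array 15, which left 1 fall. Cyp27a1 (0.65) was lost without any 1 of the 4 arrays. The fall of Sgms1, which makes sphingomyelin, was among the 20 largest, from 8.82 and 8.55 to 7.02 and 6.97 (-1.69, SE 0.16). Among 18 measured eicosanoid genes, Ptgs2 (cyclooxygenase 2) rose by 1.32 and the prostaglandin receptor gene Ptger2 fell (-1.05), and 16 were not called.

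In central carbon metabolism, 4 of 12 measured glycolysis genes rose and none of 19 genes of the tricarboxylic acid cycle was called, while of 24 genes of the respiratory chain and mitochondrial ribosome 1 fell. Pfkfb3, which makes the activator of phosphofructokinase, read 8.12 and 7.93 at 0 h and 9.97 and 10.00 at 4 h, a rise of 1.96 (SE 0.12, adjusted p = 2.82e-05). The sugar transporter gene Slc2a6 rose by 0.87. The calls of Hk1 (0.66) and Pfkp (0.61) were smaller. Without 0 h array 4 or 4 h array 15 both were lost, and that of Hk1 was also lost without 4 h array 16. Hk2 (-0.08) and Slc2a1 (-0.37) were not called. The fall in the respiratory list, Mrps18b (-0.61), was lost under each of the 3 rescalings and without any 1 of the 4 arrays.

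Ubiquitin and ISG15 enzymes formed the list with the highest share of rises outside the classical effectors. Of 27 measured, 17 rose and 2 fell (median 1.10), and all 17 rises were stable calls. Dtx3l, an E3 ligase that works with Parp9, read 8.31 and 8.14 at 0 h and 10.83 and 10.92 at 4 h, a rise of 2.65 (SE 0.10, adjusted p = 1.83e-06). Trim21, a ligase that binds the Fc part of antibodies in the cytosol, went from 8.26 and 8.06 to 10.76 and 10.71, a rise of 2.58 (SE 0.11). Rnf213 (2.58), Peli1 (2.27), Trim30a (1.94) and Rnf31 (1.24), the catalytic subunit of the linear ubiquitin chain complex, also rose. The deubiquitinase genes Usp12 and Usp25 rose by 1.58 and 1.46. Ube2l6, which conjugates ISG15, rose by 0.93. Dhx58, on the list although it encodes an RNA helicase, rose by 2.50. Dtx4, a Deltex ligase like Dtx3l, moved the other way, with levels of 8.67 and 8.62 at 0 h and 7.40 and 7.29 at 4 h (-1.30, SE 0.13, adjusted p = 4.47e-04). The other fall, Znrf1 (-0.62), was lost under each rescaling and without any 1 of the 4 arrays, which left 1 fall.

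In the antigen presentation lists, MHC class I and class II differed in their counts. Of 13 measured genes of class I loading and the immunoproteasome, 7 rose (median 0.94), Tapbpl, a tapasin relative that edits peptides, by 2.27. None of the 9 class II genes was called. H2-Aa read 10.27 and 10.16 at 0 h and 10.34 and 10.22 at 4 h (0.06, SE 0.10), and Cd74, the invariant chain, differed by -0.06 (SE 0.12). Among 26 ligands for T cell costimulation, checkpoints and adhesion, 11 rose and 1 fell. Cd86, a ligand of Cd28, read 6.15 and 5.60 at 0 h and 9.00 and 9.00 at 4 h, a rise of 3.12 (SE 0.23, adjusted p = 8.48e-05). Cd80, the other ligand of Cd28, read 7.92 and 7.67 against 7.46 and 7.31 and was not called (-0.41, SE 0.22). Cd274, the inhibitory ligand PD-L1, went from 9.15 and 8.85 to 12.60 and 12.61, a rise of 3.60 (SE 0.12, adjusted p = 8.81e-07). Cd40, on the list although it is a receptor for a ligand of T cells, rose by 3.18, and Lgals9, galectin 9, by 1.20. Slamf7 (2.67), Slamf8 (2.55) and Slamf9 (1.07) rose by different amounts. The fall of the checkpoint ligand Vsir (-0.90) was lost without 0 h array 2 or 4 h array 15, as was the rise of Pdcd1lg2 (0.92), and the call of Icam1 (0.72) was lost without 0 h array 4 or 4 h array 16.

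Receptors for chemokines, nucleotides and lipids on the macrophage surface divided into 5 rises and 8 falls among 28 measured. S1pr1, a receptor for sphingosine 1-phosphate that guides cell exit from tissue, showed the largest fall of the comparison. Its levels were 9.58 and 9.40 at 0 h and 7.31 and 7.05 at 4 h (-2.31, SE 0.16, adjusted p = 5.21e-05). S1pr2, which binds the same ligand, rose from 8.13 and 8.14 to 8.94 and 9.02 (0.84, SE 0.10, adjusted p = 0.0013). Nucleotide receptors likewise moved in both directions. P2ry1, a receptor for ADP that was not on the list, read 9.24 and 9.13 against 7.19 and 7.34 (-1.92, SE 0.14, adjusted p = 8.96e-05). P2ry13, also a receptor for ADP, rose by 1.65 (SE 0.15), and P2ry14, a receptor for UDP-glucose, by 2.57 (SE 0.16). P2ry2 fell (-0.82). Gpr183, the receptor for an oxysterol made from the product of Ch25h, read 10.57 and 10.27 at 0 h and 8.99 and 9.10 at 4 h, a fall of -1.38 (SE 0.15, adjusted p = 7.56e-04). Ccrl2, an atypical receptor that binds chemerin, rose from 7.25 and 6.96 to 10.09 and 10.10 (2.99, SE 0.13). The calls of Gpr34 (-1.50), Cxcr3 (-1.04) and P2ry6 (-0.78) were lost without 0 h array 2 or 4 h array 15, that of Cxcr4 (-0.88) without 0 h array 2 or 4 h array 16, and that of Lpar6 (10.08 and 9.80 against 9.01 and 8.87) without any 1 of those 3. P2ry12 (0.72) was lost without any 1 of the 4 arrays. The list held 3 falls without 0 h array 2 and 4 without 4 h array 15.

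Of 26 cytokine and interferon receptor genes, 7 rose and 2 fell. Il13ra1, a chain of the receptor for interleukins 4 and 13, had levels of 6.77 and 6.34 at 0 h and 9.59 and 9.30 at 4 h, a rise of 2.89 (SE 0.23, adjusted p = 1.38e-04). Il15ra, which presents interleukin 15, rose by 2.13 (SE 0.12), Il21r by 1.07 and Il12rb1 by 1.03. Il1rn, an antagonist of interleukin 1, rose by 0.81. Tgfbr1, the type I receptor for Tgf-β, fell from 9.45 and 9.18 to 8.28 and 7.89 (-1.23, SE 0.18, adjusted p = 0.0042). Ifngr1, the binding chain for type II interferon, read 9.31 and 9.21 against 8.27 and 7.96 (-1.15, SE 0.21, adjusted p = 0.0132). Its call was lost without either 0 h array or 4 h array 16. The receptor for Ifn-β itself was not called, with differences of -0.48 (SE 0.14) for Ifnar1 and -0.27 (SE 0.10) for Ifnar2. Among inhibitors of cytokine signalling, Socs1 rose by 1.01 (SE 0.11), while Socs3 (0.27, SE 0.16) was not called. Irak3, a negative regulator of Toll-like receptor signalling, fell from 8.52 and 8.31 to 7.31 and 7.39 (-1.06, SE 0.13, adjusted p = 0.0018).

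Of 37 measured chemokines and cytokines, 16 rose and 1 fell. Il27 (1.88) and Il10 (2.25), which restrain inflammation in many settings, rose beside Il18 (1.81) and the lymphocyte growth factor Il7 (1.57). Il10 read 4.62 at both 0 h arrays and 6.78 and 6.96 at 4 h (SE 0.30, adjusted p = 0.0025). Il6 read 2.77 and 2.64 at 0 h and 4.28 and 3.74 at 4 h, without overlap but with an adjusted p of 0.0677 (1.30, SE 0.37). Il1b was not called (-0.18, SE 0.22). The fall, of Cxcl2 from 7.50 and 7.11 to 6.35 and 6.27, was lost under 2 rescalings and with any array other than those of 2 h left out. The calls of Ccl2 (0.86) and Tnf (0.85) were lost without 4 h array 16, that of Ccl5 (1.93) without 0 h array 2 or 4 h array 15, and that of Cxcl9 (1.61) without any 1 of the 4 arrays.

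Of 36 Fc, C-type lectin and scavenger receptors, 4 rose, 4 fell and 28 were not called. Fcgr4 read 9.36 and 9.29 at 0 h and 11.73 and 11.77 at 4 h, a rise of 2.42 (SE 0.11, adjusted p = 4.17e-06), and Fcgr1, the high-affinity receptor for IgG, rose by 2.43 (SE 0.10). Axl, a receptor kinase for apoptotic cells, rose from 8.26 and 8.27 to 9.69 and 9.66 (1.41, SE 0.11). Fcgr3, another receptor for IgG (-0.10), Msr1 (0.12), Cd36 (-0.04) and Mrc1 (-0.17) were not called. None of the 4 falls (Clec4e, Pilra, Clec5a and Stab1, from -0.85 to -0.61) was a stable call. Without 0 h array 2 or 4 h array 15 the list held 0 falls, and without 0 h array 4 or 4 h array 16 it held 1. In the complement list, Cfb, factor B of the alternative pathway, rose by 2.51 (SE 0.10), from 5.26 and 5.24 to 7.73 and 7.79, and the other 8 genes were not called.

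On the list of 53 other macrophage transcription factors, 6 rose and 10 fell. Mxd1, which pairs with Max and opposes Myc, read 7.88 and 7.94 at 0 h and 9.85 and 10.07 at 4 h, a rise of 2.05 (SE 0.15, adjusted p = 8.08e-05). Max, the shared partner, rose from 9.47 and 9.34 to 10.96 and 10.83 (1.49, SE 0.15, adjusted p = 4.97e-04). Myc itself read 9.80 and 9.87 against 8.76 and 8.95, a fall of -0.98 (SE 0.21, adjusted p = 0.0221) that was kept under the rescalings but lost without any 1 of the 4 arrays. Arid5a, an RNA-binding factor that stabilises cytokine mRNA, rose by 1.92, and the Ets family repressors Etv6 and Etv3 by 1.33 and 0.95. Klf7 (-1.19), Mitf (-0.89) and Klf2 (-0.88) were the falls with stable calls. Leaving out any 1 of the 4 arrays left 3 of the 10 falls in number. All 6 rises of 14 interferon regulatory and Stat factors were stable calls, and included Irf2 (1.02) and Irf5 (0.99). Stat2 rose by more (2.46). Irf9 (0.53) and Irf8 (0.49) had adjusted p of 0.0290 and 0.0495 but did not reach 1.5-fold.

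Of 31 measured genes of DNA replication and S phase, 15 fell, 0 rose and 16 were not called, with a median of -0.59. Cdc6, which loads the replicative helicase at origins, read 7.91 and 7.79 at 0 h and 6.67 and 6.46 at 4 h (-1.28, SE 0.18, adjusted p = 0.0031). Uhrf1, which links DNA methylation to replication, fell from 10.29 and 10.13 to 9.07 and 9.03 (-1.16, SE 0.12, adjusted p = 6.21e-04), and E2f7 fell by 0.98. These 3 were stable calls. The other 12, among them Ccne2 (-1.18), Mcm4 (-0.79), Mcm3 (-0.75) and Mcm2 (-0.73), were not. Without 0 h array 2, 4 h array 15 or 4 h array 16 the list held 3, 4 or 6 falls. Centred on the 75th percentile, it held 10 falls and 2 rises and its median was -0.43, against a median of 0.085 over all clusters under that scaling. For clusters with 1 symbol, the median under that scaling was -0.04 at mean levels of 6 to 8 and -0.03 at 8 to 10. Cdca7, a cell division cycle associated gene outside the list, fell more than any of its members, from 6.72 and 6.37 to 4.46 and 4.34 (-2.15, SE 0.21, adjusted p = 5.16e-04).

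Of 28 mitosis genes, 7 fell, 1 rose and 20 were not called (median -0.49). Anln, a scaffold of the cleavage furrow, read 9.70 and 9.56 at 0 h and 8.60 and 8.60 at 4 h (-1.03, SE 0.13, adjusted p = 0.0021) and was the stable call. The list held 2 falls without 0 h array 2 or 4 h array 16, and 4 without 4 h array 15. The rise of Cenpe (0.70) was lost without any 1 of the 4 arrays or without either 8 h array. Regulators of G1 moved both ways, with 4 rises and 4 falls among 21. Ccnd2, cyclin D2, rose from 8.23 and 7.85 to 10.38 and 10.36 (2.33, SE 0.14, adjusted p = 3.09e-05), whereas Ccnd1 was not called (-0.09, SE 0.11). Cdk2 read 9.81 and 9.75 against 8.87 and 8.77 and fell (-0.96, SE 0.12, adjusted p = 0.0017). The Gadd45 stress genes divided as well. Gadd45a, a p53 target, read 8.91 and 8.72 at 0 h and 6.96 and 6.71 at 4 h (-1.98, SE 0.18, adjusted p = 3.11e-04), while Gadd45g rose by 1.82 (SE 0.15) and Gadd45b by 1.28 (SE 0.14). Sesn1, also a p53 target, fell from 10.24 and 10.15 to 8.41 and 8.14 (-1.92, SE 0.13). Cdkn1a, a cyclin kinase inhibitor and p53 target, read higher at 4 h without reaching 1.5-fold (0.53, SE 0.10, adjusted p = 0.0154). The falls of Cdk4 (-0.58) and Rbl2 (-0.73) were lost without any 1 of the 4 arrays, which left 2, and the rise of Rbl1 (0.81) was lost without 4 h array 15.

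Ribosome biogenesis had the lowest median of the 40 lists (-0.65). Of 22 measured genes, 11 fell and 0 rose. Gnl3, the nucleolar GTPase nucleostemin, read 9.39 and 9.17 at 0 h and 7.92 and 7.79 at 4 h (-1.43, SE 0.17, adjusted p = 0.0015). Nop58, a core protein of the small nucleolar ribonucleoproteins that methylate ribosomal RNA, fell from 9.54 and 9.23 to 8.19 and 8.16 (-1.21, SE 0.16, adjusted p = 0.0029). Polr1b, a subunit of RNA polymerase I, fell from 6.88 and 6.69 to 5.71 and 5.75 (-1.05, SE 0.15, adjusted p = 0.0031). These 3 were stable calls. Without 0 h array 2 or 4 h array 16 the list held 5 falls, and without 4 h array 15 it held 6. Centred on the 75th percentile, 8 falls and 0 rises were called and the median was -0.50. Ncl, nucleolin, was not called (-0.32, SE 0.11).

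On the list of 31 small GTPase regulators, 7 genes rose and 4 fell, with 3 rises and 2 falls as stable calls. Rapgef5, an exchange factor for Rap GTPases, read 8.03 and 7.83 at 0 h and 5.72 and 5.60 at 4 h (-2.27, SE 0.19, adjusted p = 1.95e-04). Rasgrp3, an exchange factor for Ras and Rap, fell from 9.25 and 9.03 to 7.43 and 7.35 (-1.75, SE 0.14, adjusted p = 1.58e-04). On the opposite side Rap2c, a Rap GTPase, rose by 1.48 (SE 0.13), Rasa4, which switches Ras off, by 1.15 (SE 0.13) and Arhgef3, an exchange factor for RhoA, by 2.10 (SE 0.13). Outside these lists, 5 further genes named here were among the 20 largest falls. Cdc42ep3, an effector of Cdc42, read 9.43 and 9.48 against 7.49 and 7.78 (-1.82, SE 0.27). Ssh2, a phosphatase that activates cofilin (-1.71), Mtss1, which binds actin and membranes (-1.51), and Frmd6 (-1.87) fell too. Pik3cg, the catalytic subunit of phosphoinositide 3-kinase gamma, went from 9.80 and 9.56 to 8.22 and 8.16 (-1.49, SE 0.12, adjusted p = 1.69e-04). Without 0 h array 4 the GTPase list held 3 rises and 4 falls, without 4 h array 16 3 rises and 2 falls, and without 0 h array 2 5 rises and 2 falls. Of 34 actin, adhesion and matrix genes, 2 rose, Mmp13 from 8.30 and 7.94 to 11.89 and 11.80 (3.73, SE 0.13, adjusted p = 8.81e-07) and Thbs1, thrombospondin 1, by 2.83 (SE 0.15). The fall on that list, Coro1a (-0.74), was lost without either 0 h array or 4 h array 15.

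Among 28 transporters and channels, 9 rose and 2 fell. Slc25a22 read 7.37 and 7.32 at 0 h and 9.25 and 9.42 at 4 h, a rise of 1.99 (SE 0.12, adjusted p = 2.17e-05). Slc7a2, which imports arginine and other cationic amino acids, rose by 1.84 (SE 0.15), and Slc30a1, a zinc exporter, by 1.11 (SE 0.11). Kcnj2, an inward rectifier potassium channel, fell from 8.63 and 8.48 to 7.22 and 7.03 (-1.43, SE 0.19, adjusted p = 0.0024). Kcnk13, a potassium leak channel, was among the 20 largest falls, from 8.66 and 8.77 to 6.77 and 7.19 (-1.74, SE 0.20). The second fall on the list, Slc16a3 (-0.67), was lost without any 1 of the 4 arrays. Among 20 antioxidant genes, 3 fell and 1 rose, with Gclc, a subunit of the enzyme that limits glutathione synthesis, going from 9.02 and 8.96 to 7.53 and 7.53 (-1.46, SE 0.14, adjusted p = 4.68e-04). It was the only stable call there, and the only one left without 0 h array 4 or 4 h array 15. Of 18 genes of the unfolded protein response, 3 fell, including Herpud1 (-1.06) and Eif2ak3 (-1.07), the gene of the stress kinase Perk, while Hspa5 (0.18) and Xbp1 (0.06) were not called. The third, Hsph1 (-0.88), was lost without 0 h array 2 or 4 h array 16. In the list of Tgf-β, Notch and Wnt signalling, with 4 rises and 2 falls among 31, the stable calls were Skil, a repressor of Tgf-β signalling (1.73), and Tcf7l2, a Wnt transcription factor (1.44). Without any 1 of the 4 arrays that list held 0 falls, and without 0 h array 4 or 4 h array 16 it held 2 rises.

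Genes for a pair of proteins of the nuclear bodies named after Pml rose, Pml from 8.04 and 8.05 to 9.83 and 10.00 (1.87, SE 0.10, adjusted p = 1.59e-05) and Daxx from 8.32 and 8.10 to 11.37 and 11.43 (3.19, SE 0.10, adjusted p = 7.50e-07). On the same list of 20 chromatin genes Brd2, which reads acetylated histones, rose by 0.90 and 5 fell. The demethylase gene Kdm5b (-0.96, SE 0.13) was the stable fall, and the list held 1 fall without 0 h array 2 or 4 h array 15 and 3 without 4 h array 16. Of 31 cell death genes, 15 rose and 2 fell, with 14 of the rises stable. Mlkl, which executes necroptosis, rose from 8.61 and 8.29 to 10.42 and 10.45 (1.99, SE 0.14), while Ripk3, the kinase upstream of it, was not called (-0.10, SE 0.14). Both falls, Bcl2 (-0.86) and Nlrp3 (-0.91), were lost without 0 h array 2, 4 h array 15 or 4 h array 16, and that of Nlrp3 also without 0 h array 4.

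For most called genes the change was largest at 4 h. The highest mean of the 6 times came at 4 h in 538 of the 636 rises, against 54 at 8 h and 38 at 2 h, and the lowest mean was at 4 h for 650 of the 737 falls. As the genes were chosen at 4 h and all times share the 0 h arrays, these counts are a description. Irf1 was higher earlier, with a mean of 11.15 at 1 h and 11.64 at 2 h before 10.55 at 4 h and 9.10 at 8 h. Ch25h had means of 9.96 at 2 h and 9.68 at 4 h and was back at 5.87 by 8 h, below its 0 h mean of 6.28. Fcgr4 was later, with a mean of 11.75 at 4 h that became 11.93 at 8 h and remained at 11.42 by 24 h. Lipg had a mean of 9.73 at 4 h and 9.38 at 8 h, and by 24 h the mean was 5.93, near the 5.28 of 0 h. In several down-regulated genes the later means lay nearer to the 0 h level or above it. S1pr1 had a mean of 7.18 at 4 h, then 8.90 and 9.62 at the 2 later times, against 9.49 at 0 h. Gadd45a went from 6.83 at 4 h to 9.68 at 24 h, above its 0 h mean of 8.82. Gnl3 was at 9.23 by 8 h, and Klf2, a zinc finger transcription factor, was at 7.61 by 1 h against 8.55 at 0 h and 7.67 at 4 h.

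**Figure D5:**
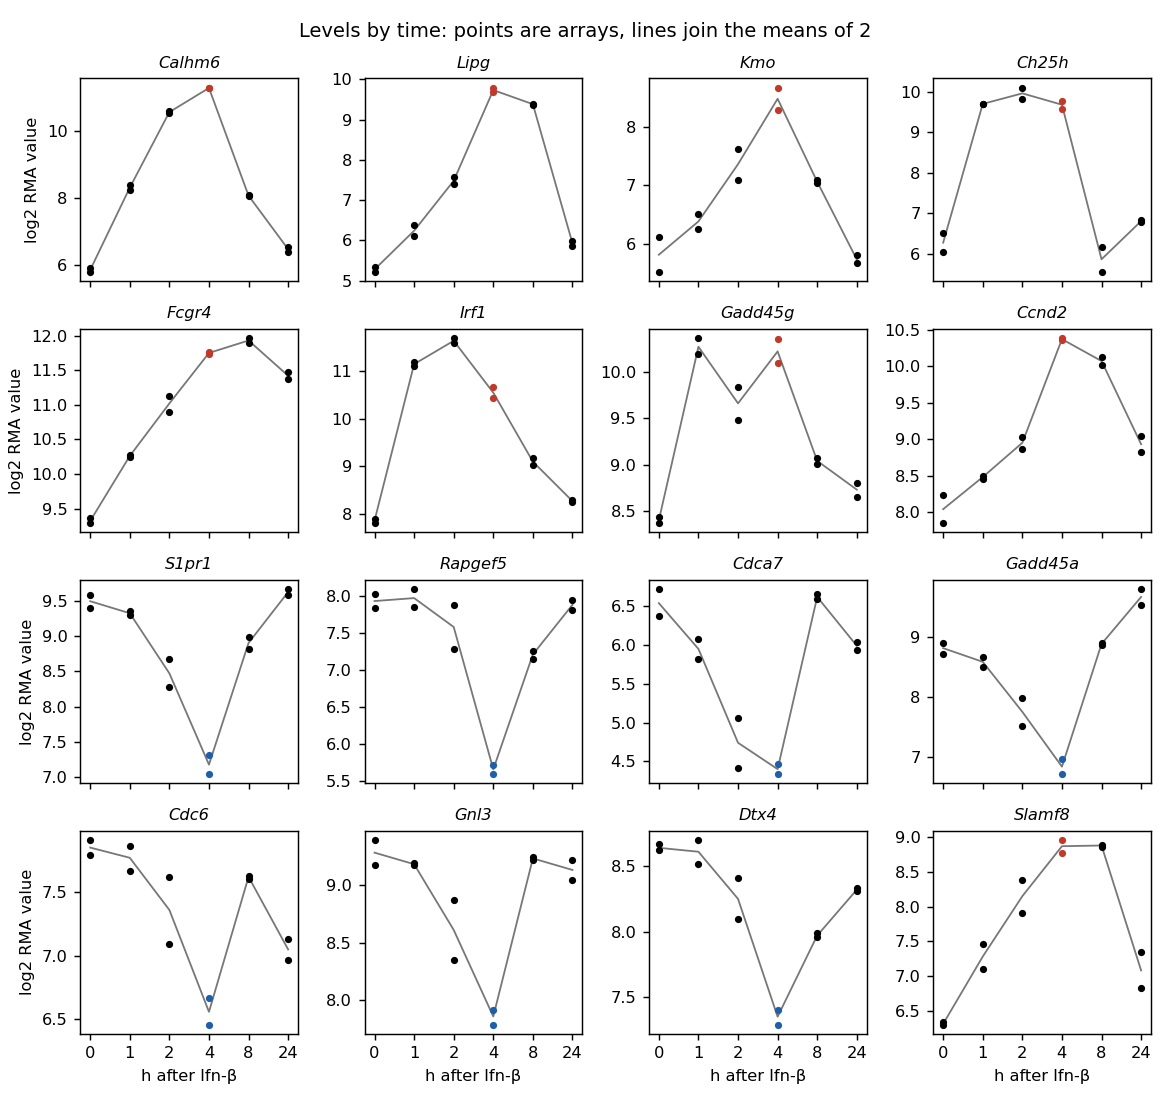
Levels (log2 RMA value, vertical axes with separate scales that do not start at 0) of 16 genes are drawn against hours after Ifn-β (horizontal axis, times evenly spaced), each point an array and lines joining the means, with the 4 h arrays in colour. Irf1 and Ch25h have their highest means at 2 h (11.64 and 9.96), whereas S1pr1, Gadd45a and Gnl3 have their lowest at 4 h (7.18, 6.83 and 7.86).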

How the data were processed

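RNA of 12 cultures (2 at each of 6 times) was hybridised to Mouse Exon 1.0 ST arrays. The authors summarised the probes with RMA in the Affymetrix Expression Console at the core gene level and deposited the result as log2 values. Versions are not given in the sources used here. The values lie between 0.81 and 14.20 and were used with no further normalization or filter. Arrays have no depth, and precision is limited by their number. Clusters were matched to symbols with the platform annotation: 14996 had 1 symbol, 1019 several and 7317 none. For 135 genes with more than 1 cluster, the one with the highest mean over the arrays stands for the gene, except that the largest changes are listed by cluster.

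The contrast 4 h minus 0 h was fitted in R 4.3.3 with limma 3.58.1 (lmFit, then eBayes) over all 12 arrays, the times forming 6 groups, which left 6 residual and 2.31 prior degrees of freedom. Tests were two-sided, with Benjamini-Hochberg adjustment over 23332 clusters. The procedure was tested on simulated data. Standard errors (SE) come from this fit. Levels of different genes were not ranked as amounts. Level ranges group clusters by their mean signal over all 12 arrays, and summed marker levels were compared only between times. The 20 largest rises and falls among called clusters with separate arrays are drawn, and most of them are named in the text. From the gene lists, names were drawn mainly from called members with large changes and members on which the list turns. Some larger changes are not named. Further names were chosen after their values were seen. The members and lists were chosen with earlier results of these data known, and no list was tested. Wilson intervals cover counting error only and came from scipy 1.17.1 in Python 3.11.15. Alternatives were other thresholds, samples, variance moderation, weights, scalings and filters, and each array left out in turn. Nothing from the supplementary tables was used.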

Additional observations from a re-analysis of the deposited data

How the results depend on the processing

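As deposited, 636 clusters were called up and 737 down at 4 h. At a 2-fold threshold there were 356 and 177. The falls were also fewer with only the 0 h and 4 h arrays in the fit (330), without the 8 h and 24 h arrays (341) and with arrays centred on the 75th percentile (489, of which 461 were falls as deposited). In these 3 fits the rises were 456, 514 and 850. The first 2 leave fewer residual degrees of freedom for the spread, and the cause of the change with centring was not tested. Leaving out each array in turn gave 446 to 664 rises and 194 to 943 falls. A time with 1 array left was then taken to have the spread of the rest. The remaining settings gave between 637 and 736 rises and between 568 and 1016 falls. Of 311 named genes with a call, 0 changed direction under any setting, 267 kept the call under the 3 rescalings, and 199 also with every array left out. Choosing the cluster with the largest change for each gene altered the counts of 0 of 40 lists. No paired analysis was possible because the labels record no pairing of arrays between the times. With 2 arrays a time, absence of a call does not show absence of change.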

Other observations

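Among the 7317 clusters with no symbol in the annotation, 143 rose (1.95%) and 155 fell (2.12%) at 4 h. The largest rise, of cluster 6797585, went from 3.67 and 3.76 at 0 h to 8.80 and 8.74 at 4 h (5.05, SE 0.14, limma adjusted p = 3.64e-07) and its mean was back at 3.85 by 24 h. Cluster 6836728 rose by 4.09 (SE 0.25) and stayed high, with means of 9.51 at 8 h and 8.85 at 24 h. The largest falls, of clusters 4934949 (-2.80, SE 0.53) and 4960555 (-2.76, SE 0.61), had array values from 1.35 to 5.87, and both calls were lost without either 0 h array or without 4 h array 15. The call of cluster 4960555 was also lost without 4 h array 16. Of the 1019 clusters with several symbols, 58 rose (5.69%) and 30 fell (2.94%), with a largest rise of 6.87.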
